A study of Mus musculus with 33 samples.

Results

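Spleen cells cultured with a control oligodeoxynucleotide (ODN) were compared with spleen cells cultured in medium alone, over 2, 4 and 8 h together, to measure what synthetic DNA without CpG motifs does to gene expression. Members were chosen by treatment: all 11 control ODN arrays and all 11 medium arrays, 22 of the 33 arrays of the series. The cells came from female BALB/c mice aged 2 months and were kept as single-cell suspensions at 37 C. The control ODN was an equimolar mixture of ODN 1612 and 1471 at 1 uM, and medium cultures received no ODN. Each group held 4 arrays at 2 h, 4 at 4 h and 3 at 8 h. The remaining 11 arrays, from cultures with the CpG ODN mixture (1555 and 1466, also 1 uM), are used only to set values side by side. The experiments are described as 3-4 independent ones that each included both control groups, while pooling of animals is not stated. So p-values measure the spread between these cultures.

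Unmethylated CpG motifs, common in bacterial DNA and rare in vertebrate DNA, are recognised by Toll-like receptor 9 (TLR9) in the endosomes of B cells and dendritic cells. TLR9 signals through the adaptor MyD88 to NF-kB and interferon regulatory factors, which switch on cytokines, chemokines and interferon-stimulated genes. Synthetic ODN also enter cells through endocytic and scavenger receptors whatever their sequence, and DNA can meet other sensors and nucleases there and in the cytosol. A control ODN without CpG motifs, the second control group beside medium, measures such sequence-independent effects.

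Each value is the log2 ratio of Cy5-labelled spleen cell cDNA to Cy3-labelled cDNA of the Universal Mouse Reference RNA on the same array. The base of the deposited log ratios is not stated and was taken as 2, so that a difference of 1 is a 2-fold difference. Depth is known only as the number of probes with a value, which ran from 7908 to 11127 on the 22 arrays, lowest for control ODN at 2 h, replicate 4. The labelled cell type was borne out by its markers: the mean level of the B cell list lay between 2.73 and 3.16 in the 6 groups, that of the T cell list between 1.82 and 2.14, and that of reference tissues outside spleen between -1.33 and -0.94. Same-numbered control ODN and medium arrays of 1 time formed 11 pairs. Within a pair the SD of the differences over genes ran from 0.31 (4 h, replicate 4) to 0.57 (2 h, replicate 1). In 3 pairs, 2 h replicates 1 and 2 and 4 h replicate 1, an array carried an array-database number below 70000, far from those of the others.

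Pooled over times, no gene was called as different between control ODN and medium. The test, limma with 1 block per pair and 1 treatment term, covered 9521 genes with both values in at least 6 pairs, and 0 (0%) were called at a Benjamini-Hochberg adjusted p below 0.05. The smallest adjusted p was 0.255. At an unadjusted p below 0.05 there were 347 genes (3.64%), 145 higher with control ODN (1.52%) and 202 lower (2.12%). Evenly spread p-values would give 5%. The count was 523 (5.67%) without the 2 h pair of replicate 3 and 555 (5.79%) without all 2 h pairs, and lay between 237 and 523 over the 11 leave-outs, with 0 called each time.

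The differences themselves were small. Their median was -0.02, but each array was centred on its median, which places this value near 0. A shift shared by most genes would therefore not be seen. The middle 50% of genes lay between -0.10 and 0.08, and 90% lay between -0.25 and 0.23. Only 97 genes differed by more than 0.5 in the mean of their pairs and 5 by more than 1. More genes were lower (5186, 54.5%) than higher (4335) with control ODN.

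For each gene taken singly, the pooled fit also bounded the size of the difference averaged over times. It does not bound an effect present at only 1 time. The 95% confidence interval of a gene's difference, from limma's moderated standard error, had a median half-width of 0.27. It lay wholly between -1 and 1, that is within a 2-fold difference either way, for 9391 genes (98.6%), and between -0.5 and 0.5 for 7403 genes (77.8%). For 130 genes it reached beyond 1 in size. At single times the median half-width was 0.46 at 2 h, 0.44 at 4 h and 0.50 at 8 h, each wider than the pooled one. There the interval lay within a 2-fold difference for 86.1%, 90.2% and 82.3% of genes.

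**Figure D1:**
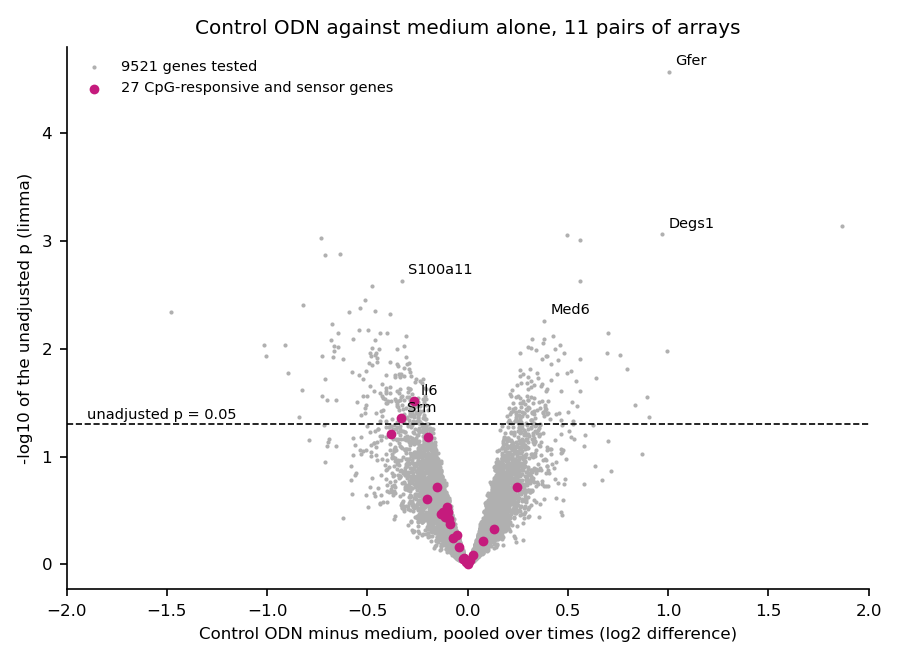
Each point is 1 of the 9521 genes tested, with the pooled log2 difference between control ODN and medium on the x axis and -log10 of the unadjusted limma p on the y axis and a dashed line at the unadjusted threshold; larger points mark the 27 measured CpG-responsive and sensor genes. The cloud is centred near 0, where centring each array on its median places it. Of the larger points only Il6 and Srm lie above the line.

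The first genes of interest were those that sense nucleic acids. Tlr9, the receptor for CpG DNA, ranged from 0.61 to 2.66 with a median of 1.61 on 10 control ODN arrays, and from 0.59 to 2.16 with a median of 1.51 on 10 medium arrays. The groups overlapped over nearly their whole range. The pooled log2 difference was 0.13 ± 0.18 (SE, n = 10 pairs), with an interval from -0.24 to 0.51. Tlr7, the endosomal receptor for single-stranded RNA, had a median of 1.60 with control ODN and 1.56 in medium, a difference of -0.06 ± 0.09 (11 pairs). Myd88, the adaptor of both receptors, differed by -0.04 ± 0.10, and Zbp1, a cytosolic nucleic acid sensor, by 0.03 ± 0.11. Unc93b1, which carries TLR9 to endosomes, was not measured on these arrays.

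In the list of nucleic acid sensing and DNA degradation, 20 of 29 genes were tested and 0 reached an unadjusted p below 0.05 in either direction. Their differences ran from -0.29 for Dnase1l3, a secreted nuclease, to 0.13 for Tlr9, with a median of -0.05 beside -0.02 over all genes. Among scavenger and endocytic receptors, through which ODN can enter cells, 13 genes were tested, again 0 at that p, with a median of 0.03. The haemoglobin scavenger receptor Cd163 had the smallest p of that list, at a difference of -0.21 ± 0.14 (11 pairs). The intervals of all 20 sensing and degradation genes stayed within a 2-fold difference.

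Genes that the CpG ODN raised early showed no called difference with the control ODN. Tnf, the cytokine tumour necrosis factor, stood at 0.54, 0.82, 1.15 and 1.40 in the medium cultures at 2 h and at 1.58, 1.00, 0.81 and 1.36 in the control ODN cultures of the same numbers. Its level was 3.52, 3.22, 3.52 and 3.61 in the CpG ODN cultures. The control ODN and medium values intermingled, while every CpG ODN value lay above both. Pooled, the Tnf difference between control ODN and medium was -0.01 ± 0.13 (SE, n = 10 pairs), with an interval from -0.29 to 0.27 on the log2 scale. CpG ODN minus medium was 2.49 ± 0.22 at 2 h, 2.67 ± 0.25 at 4 h and 2.42 ± 0.25 at 8 h (adjusted p = 1.09e-06 at 4 h, limma over all 33 arrays). Both comparisons use the same medium arrays, so their values are set side by side and not correlated.

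Ptgs2, the inducible cyclooxygenase of prostaglandin synthesis, ran from -4.12 to -2.54 with a median of -3.21 over the control ODN arrays and from -4.45 to -2.49 with a median of -3.23 in medium. Its pooled difference was -0.02 ± 0.11 (11 pairs), beside 2.31, 1.82 and 1.72 for CpG ODN at 2, 4 and 8 h. For Nfkbiz, an NF-kB cofactor induced by Toll-like receptors, the difference was -0.09 ± 0.11, beside 1.94, 2.25 and 1.98 for CpG ODN. Ccl3, a chemokine for monocytes and T cells, differed by -0.10 ± 0.09, beside 1.58, 2.11 and 2.00. Nfkbia, the inhibitor that NF-kB induces in feedback, differed by -0.20 ± 0.10 with 8 of 11 pairs lower (adjusted p = 0.99, limma).

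Cytokines whose CpG ODN values peaked at 8 h also showed no called difference with control ODN. Il12b, the p40 chain of interleukin 12, ranged from -0.19 to 1.12 on the control ODN arrays and from -0.30 to 1.15 in medium. The difference of its level was 0.08 ± 0.14 (10 pairs), beside 1.35, 2.88 and 3.44 for CpG ODN at 2, 4 and 8 h. Il10, an anti-inflammatory cytokine, had the highest difference of the set, 0.25 ± 0.18 with 8 of 11 pairs higher and an interval from -0.14 to 0.63. Its paired differences read -0.13, 0.49, 0.74 and 0.53 at 2 h, 1.08, 0.72, 0.67 and 0.13 at 4 h, and 0.11, -0.20 and -1.43 at 8 h. The last value came from replicate 3, whose medium array read 0.50, against -1.27 and -0.69 in replicates 1 and 2. The test of a change between times, given below, called 0 genes. Ifng, the interferon of NK and T cells, differed by -0.14 ± 0.14.

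Il6, a cytokine that drives B cell growth and the acute phase, was 1 of 2 genes in this set at an unadjusted p below 0.05. Over the control ODN arrays it ran from -0.33 to 1.26 with a median of 0.71, and in medium from 0.11 to 1.36 with a median of 0.96. The groups overlapped, and 7 of 11 pairs were lower with control ODN. The pooled difference was -0.27 ± 0.11, with an interval from -0.50 to -0.03 (p = 0.0381 in an exact two-sided sign-flip permutation test over 11 pairs). It was not called (adjusted p = 0.99). The CpG ODN values for Il6 were 0.11, 1.11 and 3.61 above medium at 2, 4 and 8 h.

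Among interferon-stimulated genes, where CpG ODN values were highest at 8 h, 0 were called with control ODN. Cxcl10, a chemokine induced by interferons, ranged from -0.69 to 0.92 over the control ODN arrays and from -0.28 to 0.28 over the medium arrays. Its difference was -0.02 ± 0.13 (9 pairs), where CpG ODN gave 0.38, 1.51 and 4.65. Ifit1, an RNA-binding antiviral protein, differed by -0.11 ± 0.12 (10 pairs), beside 0.26, 1.53 and 4.06 for CpG ODN. Gbp2, an interferon-induced GTPase, and Socs1, a feedback inhibitor of cytokine signalling, differed by -0.09 ± 0.10 and -0.12 ± 0.12.

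The whole interferon response list, of 57 genes with 42 tested, had 13 higher and 29 lower genes and a median difference of -0.05. Over all genes tested, 54.5% were lower and the median was -0.02. Of the 42 genes, 1 reached an unadjusted p below 0.05, Eif2ak2, beside 3.64% of all genes, and 0 were called. Eif2ak2 encodes PKR, the kinase activated by double-stranded RNA. It ran from -2.07 to -0.57 (median -1.27) with control ODN and from -2.43 to -0.91 (median -1.45) in medium. The level was higher in 10 of 11 pairs although the ranges overlapped. It was higher by 0.34 ± 0.12 (adjusted p = 0.99 in the limma fit, and p = 0.0146 in the exact permutation test over pairs, not adjusted for picking this gene). With CpG ODN it stood 0.64, 0.39 and 2.81 above medium at 2, 4 and 8 h.

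Activation, growth and immediate early genes completed the set. Cd69, an early activation antigen of lymphocytes, had the lowest difference of the 27, -0.38 ± 0.19 with 6 of 10 pairs lower and an interval from -0.78 to 0.02. Cd86, a costimulatory ligand for T cells, differed by -0.07 ± 0.13. The transcription factor genes Jun, Atf3 and Myc differed by 0.01 ± 0.09, 0.00 ± 0.13 and -0.10 ± 0.10. Srm, spermidine synthase and a target of MYC, differed by -0.33 ± 0.15 in 7 pairs (adjusted p = 0.99, limma). Ephx1, a microsomal epoxide hydrolase that CpG ODN lowered by 2.56 at 8 h, differed by -0.15 ± 0.11 with control ODN.

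Together, 27 of the 28 named genes of this set were tested, and 0 were called. Their pooled differences lay between -0.38 and 0.25 with a median of -0.07, 21 lower and 6 higher. Over all genes tested the median was -0.02 and 54.5% were lower. The set was chosen partly as genes that CpG ODN raised in this series, so the split is not independent of that choice. All 27 intervals stayed between -0.78 and 0.63, within a 2-fold difference. Not every member rose strongly with CpG ODN. Ccl4 ran from 0.02 to 0.47 at 2 h, -0.70 to -0.10 at 4 h and -0.12 to 0.37 at 8 h in CpG ODN cultures. In medium it ran from -0.24 to -0.02, -0.09 to 0.69 and -0.18 to 0.21. For comparison, CpG ODN against medium called 6 of 9244 genes at 2 h (0.0649%), 33 of 9617 at 4 h (0.343%) and 1734 of 9288 at 8 h (18.7%).

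**Figure D2:**
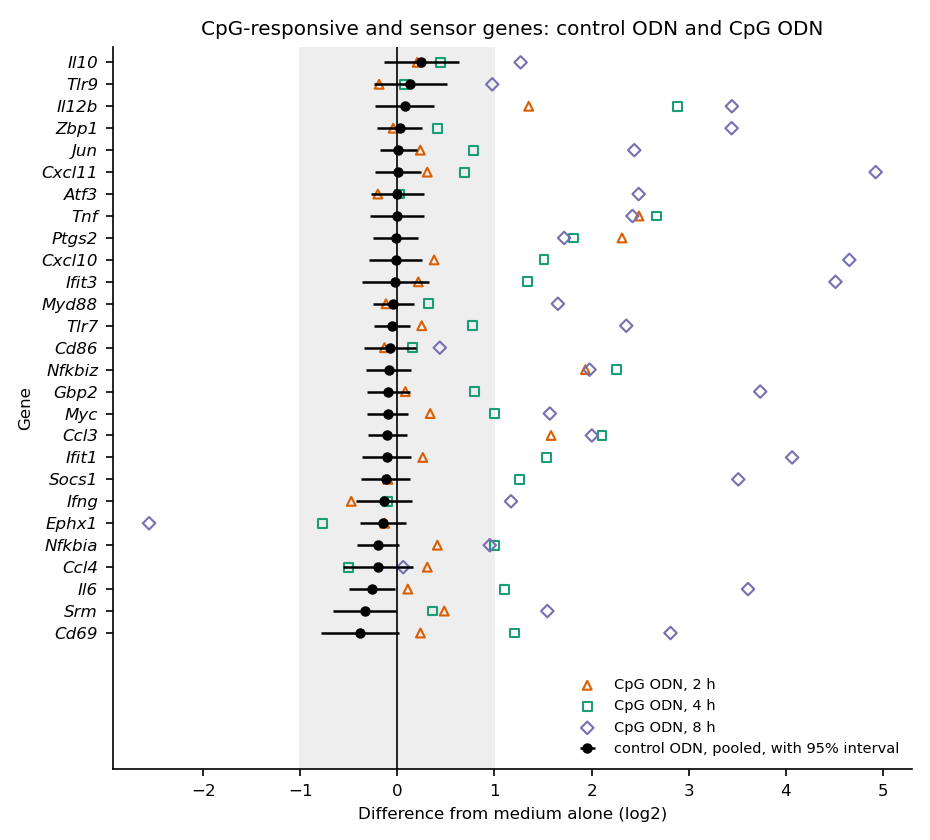
Difference from medium alone (log2, x axis) for the 27 measured CpG-responsive and sensor genes (y axis): black points are control ODN pooled over times with the 95% confidence interval, open symbols are CpG ODN at 2, 4 and 8 h, and the grey band marks a 2-fold difference either way. All control ODN intervals lie inside the band, between -0.78 and 0.63, while CpG ODN values reach 4.92 for Cxcl11 at 8 h.

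Across 21 lists of function, 635 different genes were tested. Of these, 5 were higher and 17 lower at an unadjusted p below 0.05 (3.46%, beside 3.64% of all genes), 0 were called, and 626 had intervals within a 2-fold difference. List medians lay between -0.09 and 0.05. The lowest was that of cytosolic ribosomal proteins, where 40 of 49 genes were lower (beside 54.5% of all genes) but 1 reached that p: Rpl24, a protein of the large subunit, at -0.26 ± 0.11 (9 of 11 pairs lower). The ribosomal list median was negative in 9 of 11 pairs and positive in the 8 h pairs of replicates 1 (0.41) and 2 (0.10). The highest median was that of cholesterol and fatty acid synthesis, with 12 of 20 genes higher.

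In the immune lists, counts at an unadjusted p below 0.05 are read beside 1.52% higher and 2.12% lower over all genes. Among 30 cytokines, 12 were higher and 18 lower, with 3 at that p, all lower; the lowest was Il18, a cytokine that induces interferon gamma, at -0.47 ± 0.16 (6 of 8 pairs lower). Among chemokines, 12 were higher and 15 lower, with 1 at that p. In TLR and NF-kB signalling the split was 12 to 11 with 0 at that p, and Tlr1, a receptor for bacterial lipopeptides, had the smallest, at -0.29 ± 0.14. Antigen presentation had 7 higher and 22 lower genes, beside 54.5% lower over all genes, a median of -0.06 and 0 at that p; B2m, the light chain of MHC class I, differed by -0.20 ± 0.11.

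Lists of growth and stress were similar, read beside 54.5% lower and a median of -0.02 over all genes. At an unadjusted p below 0.05, 1.52% of all genes were higher and 2.12% lower. Cell cycle and DNA replication had 27 higher and 23 lower genes with 1 at that p on each side, and the p53 response had 11 higher and 19 lower with 2 at that p, both higher. Apoptosis and survival had 0 at that p, and Fadd, the adaptor of death receptors, differed by 0.20 ± 0.10 with 10 of 11 pairs higher. Oxidative stress, metal and hypoxia genes also had 0, with a median of -0.04. Oxidative phosphorylation had 13 higher and 27 lower genes and a median of -0.07.

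Within the other lists, the gene with the smallest p was again not called. Dusp6, a phosphatase that limits ERK signalling, differed by -0.29 ± 0.12 among immediate early genes. Bcl6, the germinal centre repressor, differed by -0.27 ± 0.12 among lymphocyte activation genes, and Ccl2, a monocyte chemokine, by -0.29 ± 0.13. Hspa5, the main chaperone of the endoplasmic reticulum, differed by -0.54 ± 0.20 in 8 pairs. Rrm2 and Dut, which supply deoxynucleotides, were lower in 9 of 10 and 9 of 11 pairs, by -0.26 ± 0.11 and -0.21 ± 0.09. Cfi, complement factor I, was lower in 7 of 7 pairs, by -0.63 ± 0.15. There the exact permutation test over 7 pairs gave p = 0.0156, the smallest it can give and not adjusted for picking Cfi from its list. None was called (adjusted p = 0.99 for each in the limma fit).

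**Figure D3:**
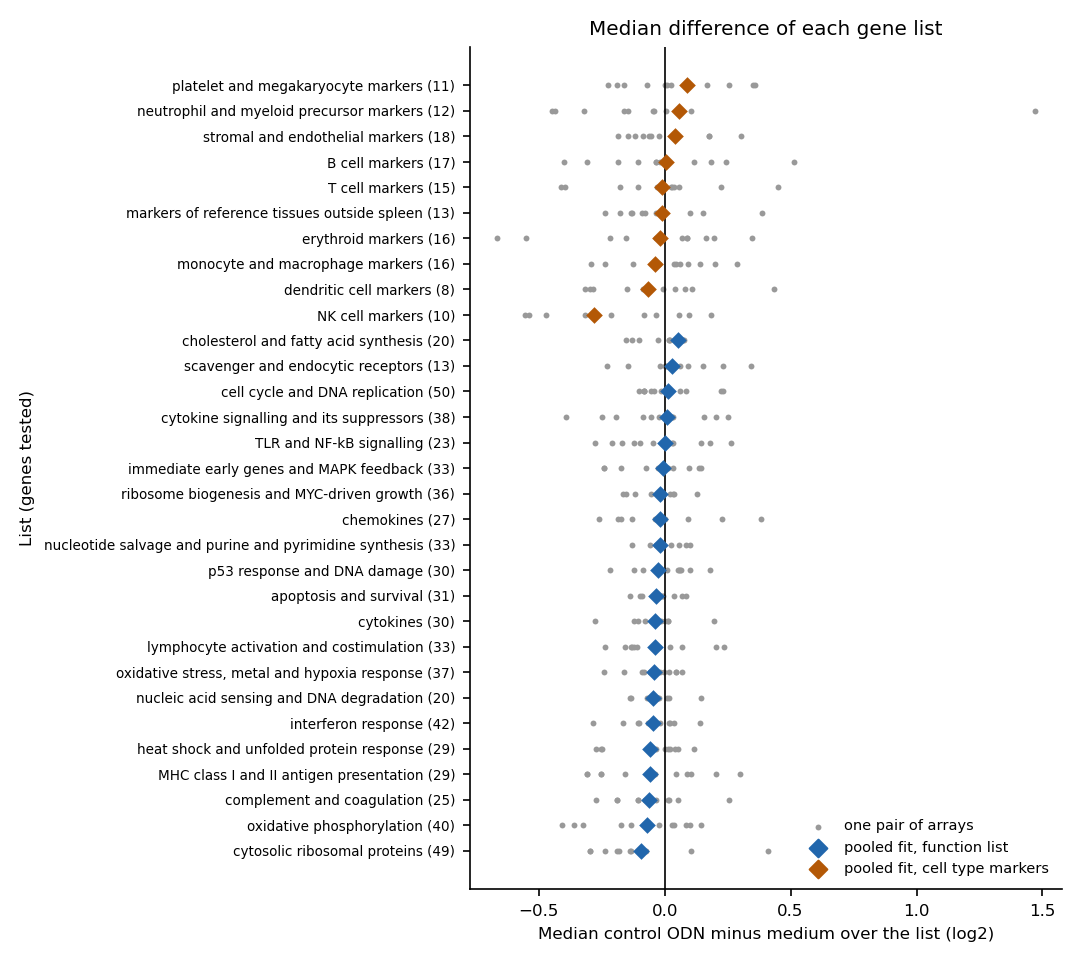
Median log2 difference between control ODN and medium (x axis) for each of 31 gene lists (y axis, with the number of genes tested): diamonds are from the pooled fit, blue for function and orange for cell type markers, and grey points are single pairs. Function list medians lie between -0.09 and 0.05; the NK cell list is lowest at -0.28, and 1 pair of the neutrophil list stands apart at 1.47.

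Cell type markers were read the same way, because the cultures held mixed spleen cells. In such bulk samples, fewer cells of a type and less RNA per cell cannot be told apart. B cell and T cell list medians were 0.01 and -0.01 over 17 and 15 genes. Medians of the other lists except NK cells lay between -0.07 for dendritic cells and 0.09 for platelets. Neutrophil markers had a median of 0.06. Their 4 h pair of replicate 1, which holds an array with a low database number, stood at 1.47 and the next highest pair at 0.10. Without the 4 h pair of replicate 1 the pooled fit again called 0 genes, with 303 at an unadjusted p below 0.05. The 4 h fit without it also called 0.

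NK cell markers had the lowest median of all lists, -0.28, with 9 of 10 tested genes lower. Of 17 listed genes, 10 were measured; Ncr1, a defining NK receptor, was not. Over all genes tested, 54.5% were lower. At an unadjusted p below 0.05 there were 4 of 10, all lower, beside 2.12% of all genes, and 0 were called (adjusted p = 0.99 for each, limma). The granzymes Gzma and Gzmb, serine proteases of cytotoxic granules, differed by -0.48 ± 0.17 (7 of 10 pairs lower) and -0.44 ± 0.15 (7 of 8). The NK receptors Klrd1 (CD94) and Klrk1 (NKG2D) differed by -0.44 ± 0.18 (8 of 11 pairs lower) and -0.43 ± 0.19 (8 of 10). Gzma ranged from 3.82 to 6.03 with a median of 4.85 on control ODN arrays and from 4.45 to 5.96 with a median of 5.63 in medium. The groups overlapped. Activated T cells also express granzymes and several of these receptors.

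The other NK markers spread more widely. Ccl5, a chemokine of NK and T cells, differed by -0.30 ± 0.17, Eomes, a transcription factor of NK cells, by -0.26 ± 0.23, and Prf1, perforin, by -0.18 ± 0.16. Klrb1c and Klra1, 2 further receptors, stood at -0.07 ± 0.20 and -0.05 ± 0.14, and Il2rb, the shared receptor chain for interleukins 2 and 15, at 0.19 ± 0.18. Pair by pair, the NK list median lay between -0.55 and 0.19 and was negative in 8 of 11 pairs, including 4 of 4 at 4 h. Other lists, among them B cell markers, lymphocyte activation and cytosolic ribosomal proteins, were also negative in every 4 h pair. The median over all genes at 4 h was -0.05. The mean level of the NK list was 2.18, 1.74 and 1.86 with control ODN at 2, 4 and 8 h, against 2.23, 2.03 and 2.01 in medium. The ranges overlapped at each time, for example 1.51 to 2.00 against 1.60 to 2.24 at 4 h. Leaving out any 1 pair kept the list median between -0.34 and -0.24.

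Because fewer than 8 genes were called in either direction, the genes with the smallest p among those with at least 9 pairs are described, 8 in each direction. S100a11, a calcium-binding protein, was lower with control ODN in 11 of 11 pairs. At 2 h the control ODN arrays read -0.99, -0.57, -0.27 and -0.92 against -0.46, -0.47, -0.14 and -0.64 in medium. At 4 h they read -0.75, -0.90, -0.97 and -0.76 against -0.46, -0.29, -0.33 and -0.75, and at 8 h -0.91, -0.11 and -0.66 against -0.29, 0.09 and -0.47. The ranges overlapped at each time although every pair had the same sign, and the smallest paired difference was -0.01. Pooled, the difference was -0.33 ± 0.09 (adjusted p = 0.99, limma), a 1.25-fold lower level. The exact sign-flip permutation test over 11 pairs gave p = 0.000977, the smallest it can give with 2048 sign patterns, not adjusted for the genes from which S100a11 was picked. Pairs of 1 replicate number at different times may share an experiment. The permutation tests and the limma fits here all treat them as independent.

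Med6, a subunit of the Mediator complex of RNA polymerase II, was the counterpart, higher in 11 of 11 pairs. Its level ran from 0.06 to 1.92 (median 0.44) with control ODN and from -0.52 to 1.41 (median 0.24) in medium, with wide overlap. The pooled difference was 0.38 ± 0.12 (adjusted p = 0.99, limma), with paired differences from 0.04 to 1.16. The same exact permutation test gave p = 0.000977, likewise not adjusted for picking this gene.

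Degs1, the desaturase that makes ceramide, had the largest difference among the 16 genes. It ran from -1.03 to 0.55 with a median of -0.03 on 10 control ODN arrays and from -2.10 to 0.35 with a median of -1.05 on 11 medium arrays. Control ODN was higher in 9 of 10 pairs, by 0.97 ± 0.23 (adjusted p = 0.99 in the limma fit). The exact permutation test over pairs gave p = 0.00781, again not adjusted for picking this gene. Paired differences spread from -0.42 to 2.25. The CpG ODN values for Degs1 were 0.24, 0.28 and 0.11 above medium at 2, 4 and 8 h.

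The remaining higher genes were Aqp3, a water and glycerol channel (0.56 ± 0.13, 8 of 9 pairs), the carnitine transporter gene Slc22a21 (0.38 ± 0.12, 10 of 10 pairs), Nudcd2, Brca1, the hormone gene Prl and Eif2ak2, with differences from 0.30 to 0.34 for the last 4 and 9 or 10 of 11 pairs higher. Lower genes beside S100a11 were Igf2bp1, an RNA-binding protein (-0.48 ± 0.13), Pcgf2, a Polycomb subunit (-0.51 ± 0.14), and Dcn, the matrix proteoglycan decorin (-0.46 ± 0.14). Trim28, a corepressor (-0.39 ± 0.12), Crip2 (-0.50 ± 0.16), Parp3, an ADP-ribosyltransferase (-0.65 ± 0.21), and Smad5, a transducer of bone morphogenetic proteins (-0.44 ± 0.14), made up the 8. All 16 had an adjusted p of 0.99 in the limma fit. Against the same medium arrays, CpG ODN called 6 of the 16 at 8 h, among them Eif2ak2 (2.81) and S100a11 (-1.37). It called 0 of them at 2 h or 4 h. Over all genes tested, CpG ODN called 18.7% at 8 h. The 16 were picked by their difference from these same medium arrays, so the count is not independent of that choice.

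**Figure D4:**
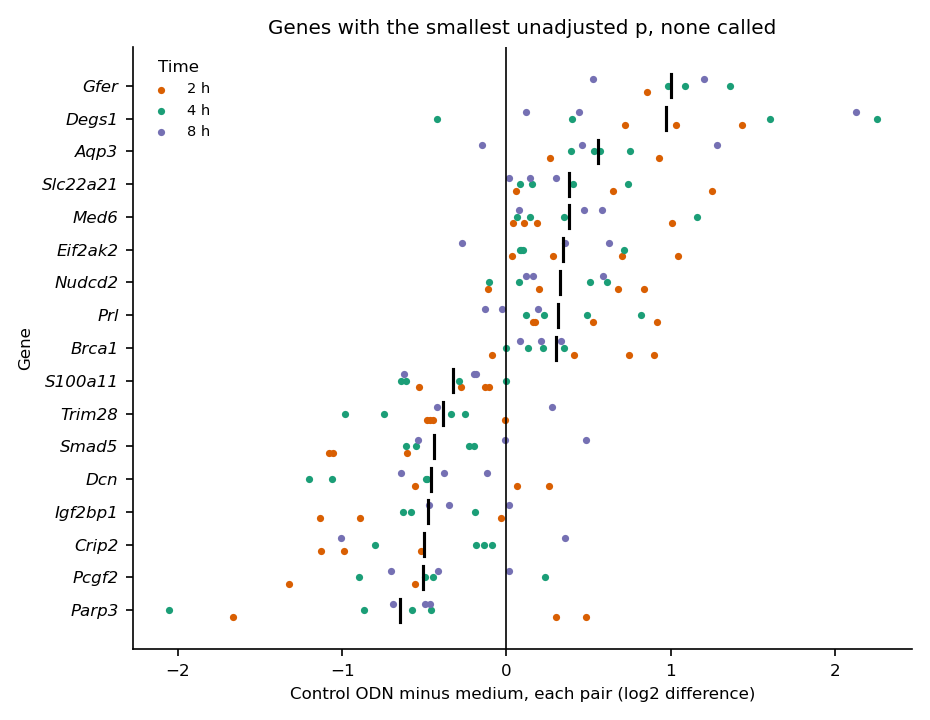
Log2 difference between control ODN and medium in each pair (points, coloured by time) and in the pooled fit (vertical bars) for the 16 genes with the smallest unadjusted p and at least 9 pairs, and for Gfer with 6 pairs. S100a11, Med6 and Slc22a21 have all their pairs on 1 side of 0, as does Gfer, while the other genes have pairs on both sides.

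The smallest p of the table belonged to Gfer, a sulfhydryl oxidase of the mitochondrial intermembrane space, which was named after its value was seen. It had both values in only 6 pairs. The control ODN arrays of those pairs read 0.11, 0.20, 0.20, 0.49, -0.06 and -0.43, against -0.75, -0.88, -1.16, -0.49, -1.26 and -0.96 in medium. Each control ODN value lay above all 6 of these medium values. Medium arrays without a partner value read -0.02, 0.29 and 0.69, so the full groups overlapped. The pooled difference was 1.00 ± 0.14 (adjusted p = 0.255, limma), about a 2.00-fold higher level. The exact sign-flip permutation test gave p = 0.0312, the smallest possible with 6 pairs and not adjusted for the genes from which Gfer was picked.

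Beside Gfer, 4 genes had a pooled difference above 1 in size, also named after their values were seen. Gpr146, an orphan receptor, stood at 1.87 ± 0.40 with 6 of 6 pairs higher. Ccr8, a chemokine receptor, stood at -1.48 ± 0.43 with 0 of 8 pairs higher. Prl4a1, of the prolactin family, stood at -1.02 ± 0.33 and Polr1a, the largest subunit of RNA polymerase I, was 2.01-fold lower (SE 0.34 on the log2 scale). Polr1a pairs were uneven, from -3.02 and -2.60 to several near 0, such as -0.03 and 0.10. Each of the 4 genes had an adjusted p of 0.99 in the limma fit and was measured in 6 to 9 pairs.

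Read by time, 1 gene was called. At 2 h, 0 of 8774 genes were called (0%), with 396 at an unadjusted p below 0.05 (4.51%, limma; 2.02% higher and 2.5% lower with control ODN). At 4 h, 1 of 9590 was called (0.0104%), with 422 at that p (4.4%; 1.71% higher and 2.69% lower). At 8 h, 0 of 9449 were called (0%) while 697 reached that p (7.38%), of which 442 were higher with control ODN (4.68%) and 255 lower (2.7%).

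The called gene was Tra2b, a splicing regulator of the SR-like family. At 4 h its level was 2.15, 2.17, 2.93 and 2.76 in medium and 0.39, 0.40, 0.43 and -0.11 with control ODN. These groups did not overlap, and the difference was -2.23 ± 0.28 (adjusted p = 0.0329, limma). At 2 h medium alone spanned 0.07 to 3.33 and control ODN 0.87 to 3.33, and at 8 h medium spanned 0.11 to 3.17. The CpG ODN arrays at 4 h spanned -0.84 to 3.60. So values near 0 and near 3 occurred in every treatment, and the pooled difference was -0.58 ± 0.39 (adjusted p = 0.99, limma). The call was lost without any 1 of the 4 pairs at 4 h (adjusted p from 0.08 to 0.446), and adjusted p ran from 0.00876 to 1 over all alternatives. Without the pair of replicate 4, 2 other genes were called at 4 h, Cox7a2 (-2.68) and Tbxas1 (1.68).

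**Figure D5:**
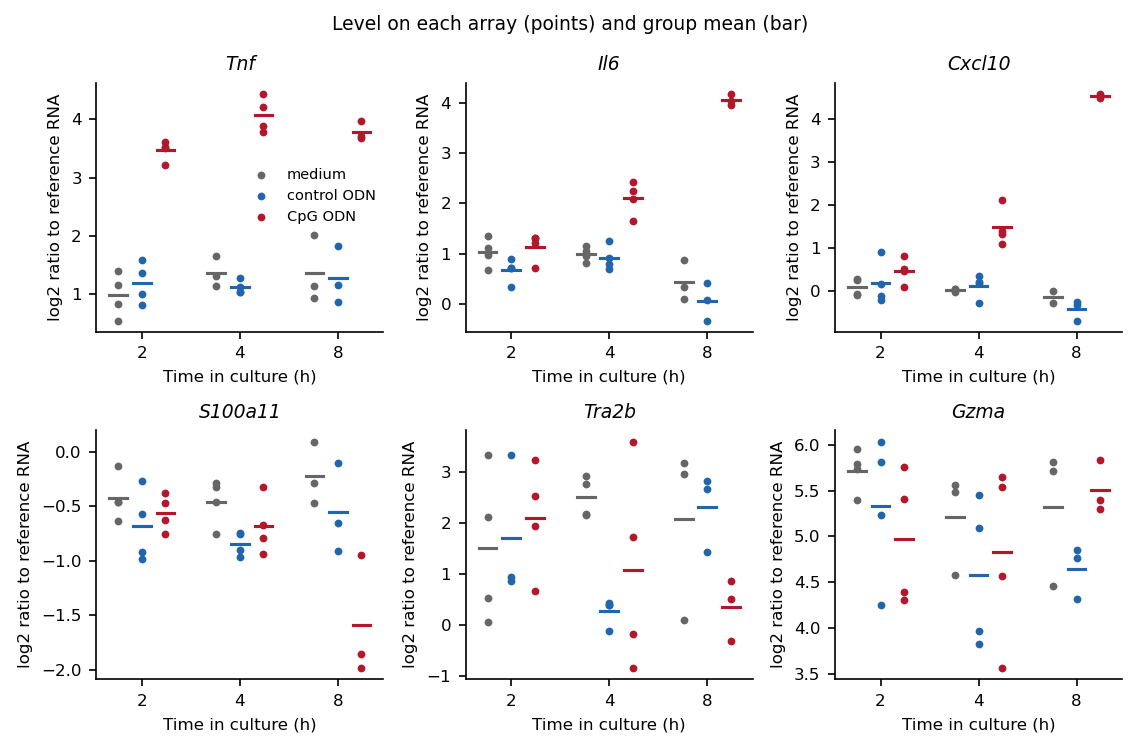
Level of 6 genes (log2 ratio to the reference RNA, y axis) on each array, by time in culture (x axis) and treatment, with bars at group means. For Tnf the CpG ODN points lie above all medium and control ODN points at each time; for Tra2b the 4 control ODN points at 4 h lie below the 4 medium points, and other groups span much of the range.

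Pooling assumes 1 effect at all times, so its change was tested as well. A moderated F test that the differences at 2, 4 and 8 h are equal called 0 of 8527 genes (0%), with 512 at an unadjusted p below 0.05 (6%). Its smallest adjusted p was 0.189, for Tra2b (0.0408 without the 8 h pair of replicate 2, the only call among the leave-outs). The contrasts of 4 h and 8 h with 2 h, and of 8 h with 4 h, called 0 genes each, with 438 (5.14%), 643 (7.54%) and 532 (6.24%) genes at that p. The order is 4 h minus 2 h, 8 h minus 2 h and 8 h minus 4 h.

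Near-calls at single times, again named after their values were seen, rested on few arrays. Crx, a photoreceptor transcription factor, read 0.77, 1.46, 1.77 and 2.41 in medium at 2 h and -0.05, -0.32, -0.10 and 1.48 with control ODN, with overlap through the last array. Its difference there was -1.35 ± 0.20 (adjusted p = 0.0974, limma), against -0.17 at 4 h and -0.06 at 8 h. Dqx1, a helicase family member, had 2 pairs at 8 h, with 0.19 and 0.40 in medium and -2.04 and -1.26 with control ODN, and the fit gave an adjusted p of 0.248 (limma; 0.0242 with the CpG ODN arrays in the fit, and 0.0242 to 0.999 over the alternatives at 8 h for the gene with the smallest p). At 2 h and 4 h the Dqx1 difference was -0.02 and -0.10.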

How the data were processed

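The authors' deposited table holds 1 log2 ratio per probe and array, Cy5 (spleen cells) over Cy3 (common reference), and the direction follows from the dyes per the labels. For background correction, filters on spots, normalization within arrays and the log base, the method is not given in the sources used here. No dye was swapped, so dye effects cancel only in differences between groups. Of 16720 probes, 11303 had values. The platform annotation, which can be old, gave 14656 probes 1 gene symbol and 6 several, and 2058 had none. Only probes with 1 symbol were used, which left 9672 genes. In 511 genes with several probes, that with the fewest missing values was used, and this touched none of the genes named.

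Each array was centred on its median. Control ODN and medium were compared with limma 3.58.1 in R 4.3.3, with a block for each time and replicate number and a call at a Benjamini-Hochberg adjusted p below 0.05. Errors are moderated standard errors. Single times needed at least 2 pairs of that time. The CpG ODN values come from a fit on all 33 arrays with the same blocks. The statistics were tested on simulated data. The block follows from the definition of the comparison, and the series text says that each experiment held both controls. Yet same-numbered arrays deviated together (correlation over 0.1) in only 8 of 11 pairs, so the fit without the block was run too.

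Genes were named by rule: up to 8 with the smallest p per direction where fewer than 8 were called, the smallest p of each list, genes called at single times, and 28 CpG-responsive or sensor genes. The NK cell markers, and the genes said to be so in the text, were added after their values were seen. Members and lists were chosen with earlier results of these data known. Alternatives covered the block, scaling, missing values, probes, weights, variance prior, arrays in the fit, times and pairs left out. The fit on pairs that deviated together was added after seeing the data.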

Additional observations from a re-analysis of the deposited data

Results flagged for a closer look

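In 6 cases, paired differences of 1 pair stood apart from the other 3 of their time by Dixon's 95% criterion, out of 88 sets of 4 values examined; chance flags about 1 in 20 such sets. At 2 h, Med6 was 1.01 higher with control ODN in 1 pair, where the next pair was at 0.18. Nfkbiz was 0.73 higher in 1 pair at 2 h, with the next at -0.17, and Cxcl10 was 0.63 higher in 1 pair, with the next at -0.05. For Trim28 at 2 h, 1 pair stood at -0.010 while the others lay between -0.48 and -0.45. At 4 h, Eif2ak2 was 0.71 higher in 1 pair, with the next at 0.10, and Crip2 stood at -0.80 in 1 pair, with the next at -0.19.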

How the results depend on the processing

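The pooled comparison called 0 genes under all 18 other settings and without each of the 11 pairs in turn. Its count at an unadjusted p below 0.05, 347, became 142 with no replicate block (time as the only covariate), 179 with the replicate block as additive time and repeat number, 146 with all 11 pairs complete (fewer genes tested) and 555 without the 2 h pairs; leaving out single pairs gave 237 to 523. With all 11 pairs complete the share was 2.91% of 5013 genes, beside 3.64% of 9521 in the main fit. The cause of these moves was not tested. The share of intervals within a 2-fold difference stayed between 95.5% (without the 4 h pairs) and 99.6%. At 4 h, where 1 gene was called, 0 were called with no replicate block, with quantile normalization, with all 33 arrays in the fit and with only the pairs of this time, 4 with array weights (Ccr8, Ebf2, Nuf2 and Tra2b), and 0 to 2 without single pairs. At 2 h, 0 genes were called throughout, also without single pairs. At 8 h, 1 gene (Dqx1) was called with all 33 arrays in the fit, and 0 without any single pair. The change between times gave 0 to 1 calls without single pairs. Tra2b at 4 h was called in 2 of 10 alternatives. Of 1346 named-gene values under other settings, 48 changed sign and 0 were called in the pooled fit. Same-numbered arrays correlated best with each other in 7 of 11 pairs. The number of arrays limits the precision, to a median pooled half-width of 0.27.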
